A study of Mus musculus with 18 samples.

Results

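The genes described here are the collagens, their enzymes and a few further genes of the extracellular matrix, measured in cells sorted from degenerating mouse retinas that did or did not receive a TGFB1 virus. They were taken from the 54532 genes of the count table by symbol: every protein-coding collagen chain, every matrix metalloproteinase (Mmp), tissue inhibitor of metalloproteinases (Timp) and Adamts gene that carries a number, and Fn1, Lox, Postn, Bgn, Dcn, Acta2 and Tagln. This gave 96 genes. There were 44 collagen chains, of which 11 belong to fibrillar collagens, 10 to fibril-associated collagens, 9 to network collagens, 8 to beaded-filament, anchoring and von Willebrand-domain collagens, 4 to transmembrane collagens and 2 to multiplexins. The others were 22 Mmp genes, 4 Timp genes, 19 Adamts genes, 5 further matrix genes and 2 genes of smooth muscle contraction.

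Collagens are triple helices that are secreted, trimmed and crosslinked into fibrils, networks or anchoring filaments, and the enzymes of the Mmp and Adamts families cut them and the proteoglycans between them, held back by the Timp inhibitors. TGFB1 is known across many tissues as an inducer of collagens, fibronectin and lysyl oxidase in fibroblasts and of Acta2 and Tagln in myofibroblasts, which is why fibrosis is a recognised risk of delivering it. In the retina, matrix lies mainly in the inner limiting membrane, the vessel walls and the interphotoreceptor space, and Mueller glia, vascular cells and pigment epithelium are among its known sources.

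All libraries came from retinas of rd1 mice on the FVB background at postnatal day 30; rd1 carries a Pde6b mutation through which rods, and later cones, die. Every animal received AAV8-GFP under the retina, alone or together with AAV8-TGFB1, so the GFP virus is shared by all groups. Dissociated cells were stained with antibodies and sorted into microglia and non-microglia, and the RNA was sequenced after a modified Smart-Seq2 preparation. There were 7 libraries per treatment for microglia and 2 per treatment for non-microglia. Which promoter drives TGFB1 and which antibodies were used is not stated in the labels. Nor do they name the animal behind each library, and p-values therefore reflect variation from library to library, some of which may be technical.

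The libraries held 1582451 to 3064027 counts each. Microglia markers summed to 37502 to 46582 CPM (counts scaled to a library size of 1000000) in the microglia libraries and 54.6 to 68.0 in the non-microglia libraries, and Mueller glia markers to 282 to 939 and 14064 to 16104 CPM. Tgfb1 itself, the check of the treatment, had 0 counts in each non-microglia GFP library (counting upper limits 1.08 and 1.24 CPM) and 462 and 402 counts, or 151 and 131 CPM, in the non-microglia TGFB1 libraries; in microglia it ran from 8.71 to 25.7 CPM over both treatments. In libraries of many cells, fewer cells of a type and less RNA per cell cannot be told apart.

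The 96 matrix genes took 0.0561% to 0.0915% of the counts in microglia and 0.450% to 0.523% in non-microglia, so both fractions made some of this RNA and non-microglia several times more. Levels are compared between genes per kilobase of exon (RPKM), as mean ± SD over the 14 microglia or the 4 non-microglia libraries. In microglia the highest level was that of Adamts1, a secreted protease that cuts proteoglycans, at 40.8 ± 8.07 RPKM, followed by Timp2, an inhibitor of metalloproteinases, at 17.0 ± 1.78. Mmp2, a gelatinase that cuts denatured and basement membrane collagen, stood at 9.18 ± 2.17, and Col27a1, a fibrillar collagen chain, at 7.66 ± 2.12. The library ranges of Mmp2 and Col27a1 overlapped (3.59 to 11.9 and 4.76 to 11.6 RPKM), and both lay below that of Timp2. Adamts10, Fn1, Col15a1, Lox, Col6a3, Mmp19, Adamts16 and Mmp11 completed the 12 highest, at mean levels of 4.66 to 2.03 RPKM.

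In non-microglia Adamts1 was again highest, at 158 ± 21.6 RPKM, and Col9a1, a chain of the fibril-associated type IX collagen known from cartilage and vitreous, was second at 91.5 ± 8.25. Timp3, a matrix-bound inhibitor known for a macular dystrophy, reached 58.8 ± 3.22 RPKM. Col18a1, Timp2, Col23a1, Col9a3 and Acta2 followed at 28.6, 25.8, 25.5, 24.7 and 24.1 RPKM, and their library ranges overlapped; Col18a1 is the precursor of endostatin, Col23a1 a transmembrane collagen and Acta2 the smooth muscle actin. Adamts5, a protease of aggrecan, Col2a1, the chain of type II collagen of cartilage and vitreous, Mmp11 and Fn1 completed the 12 highest, at 22.1, 19.96, 18.2 and 9.91 RPKM.

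**Figure D1:**
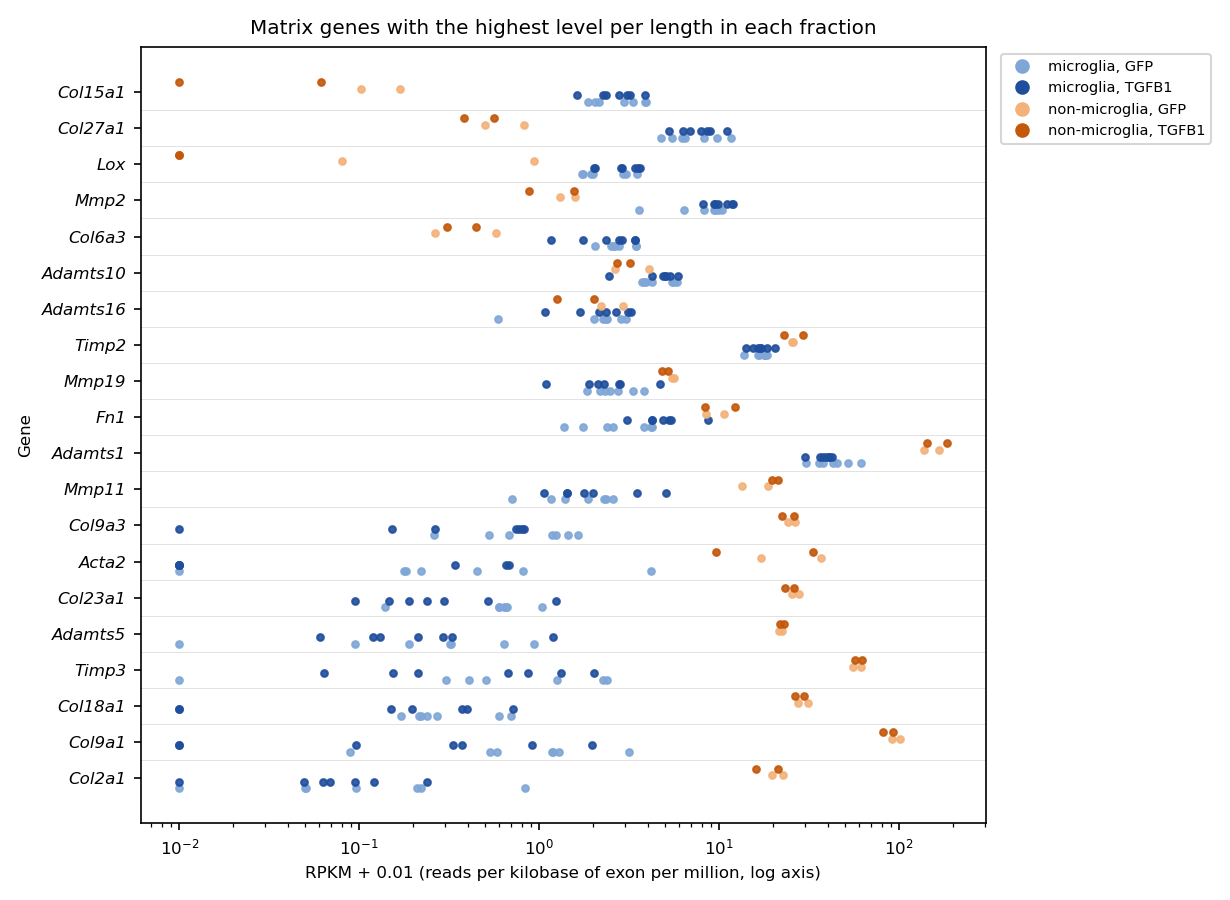
Level per length (RPKM + 0.01, log axis) of the matrix genes that are among the 12 highest in microglia or in non-microglia; each point is a library and genes are ordered by the ratio of their mean levels in the 2 fractions. Col15a1, Col27a1, Lox, Mmp2 and Col6a3 at the top lie higher in microglia, and Col2a1, Col9a1, Col18a1, Timp3 and Adamts5 at the bottom lie higher in non-microglia.

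The fractions were compared separately in GFP and in TGFB1 retinas, with different libraries, to see which cells carry each transcript. Most of the matrix genes that could be tested were higher in non-microglia, and a smaller set with Col27a1, Col15a1, Col6a3, Mmp2, Mmp12, Postn and Lox was higher in microglia. Of the 58 genes with enough counts in the fit of all 18 libraries, 45 were higher and 9 lower in non-microglia of GFP retinas, where 64.2% of all genes tested were called, 34.2% higher and 29.9% lower (edgeR, Benjamini-Hochberg adjusted p under 0.05). In TGFB1 retinas the counts were 44 and 9, against 65.2% of all genes called, 34.4% higher and 30.8% lower. Both comparisons called 44 genes higher and 8 lower. Of the 58, 13 had enough counts to be tested within each fraction, 39 only within non-microglia, 5 only within microglia and 1 only in the joint fit, so a difference between fractions was part of how many of them came to be tested. The median log2 fold change was 3.38 and 3.43, against 0.06 and 0.04 over all genes, and Lox and Col25a1, which have a group without counts, lie below it at any bound. With DESeq2-type size factors the median of all genes moved to 0.17 in both comparisons, and all 52 genes called the same way in both kept their calls.

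Chains of type II and type IX collagen were among those with the largest differences. Col9a1 stood at 512 and 463 CPM in the 2 GFP libraries of non-microglia and at 469 and 410.0 in the TGFB1 libraries, but ran from 0.398 (median 5.91) to 16.0 CPM in GFP microglia and from 0 (median 1.64) to 9.88 in TGFB1 microglia. No microglia library came near the non-microglia libraries, and the log2 fold change was 6.45 (SE 0.47, edgeR adjusted p = 8.18e-09) in GFP and 7.62 (SE 0.53, edgeR adjusted p = 5.21e-09) in TGFB1 retinas. Col9a3 and Col9a2, the partner chains of Col9a1, were also higher in both, by 4.69 and 4.53 on the log2 scale in GFP retinas. Col2a1 stood at 210.0 and 182 CPM in GFP non-microglia and at 149 and 197 in TGFB1 non-microglia, while its microglia libraries ran from 0 to 7.66 CPM (medians 0.797 and 0.546). Its log2 fold change was 6.90 (SE 0.38, edgeR adjusted p = 1.85e-11) and 7.89 (SE 0.44, edgeR adjusted p = 1.93e-11), the highest positive value of the matrix genes in both treatments.

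Of the 8 fibrillar collagen chains tested, 7 were higher in non-microglia in both comparisons and Col27a1 was the exception. Col5a1, a chain that nucleates type I collagen fibrils, had 25.6, 23.2, 19.6 and 27.6 CPM in the non-microglia libraries, and only 12 and 2 counts over all GFP and all TGFB1 microglia, a pooled ratio of 32.4 (counting interval 18.03 to 64.1) and 175 (47.7 to 1461). The type I chains themselves were low: Col1a2 had 21.1 and 22.9 CPM in GFP and 17.0 and 26.0 in TGFB1 non-microglia, or 1.75 ± 0.30 RPKM, and Col1a1 only 0.457 ± 0.35 RPKM, with 27 and 10 counts in the 2 treatments, too few to be tested. All 8 network collagens tested were higher in non-microglia, with log2 fold changes from 2.77 to 5.02 in GFP and 2.23 to 5.5998 in TGFB1 retinas. Of these 0, and of the fibrillar chains only Col27a1, had enough counts to be tested within microglia. The others passed the filter on counts through non-microglia, which favours this direction. Over all genes tested, 34.2% and 34.4% were higher. The Col4 chains build basement membranes and the Col8 chains the short-chain lattice known from vessel walls and the cornea. The calls of Col8a2 and Col4a3, both low, depended on the setting: DESeq2 did not call Col8a2 in GFP retinas or either gene in TGFB1 retinas, and both calls were lost without GFP 2 or TGFB1 1 of non-microglia in the comparison that uses that library. Per length, the level of Col4a5 in non-microglia was 9.04 RPKM, of Col4a2 8.42 and of Col4a1 4.86, and of Col4a3 0.332. Col18a1, of vascular and epithelial basement membranes, was higher at 192, 219, 207 and 185 CPM against at most 4.94 in any microglia library (log2 fold change 6.498 and 6.98).

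The inhibitors were higher in non-microglia for all 4 Timp genes in both treatments, but by very different amounts. The share of all genes tested that were higher was 34.2% and 34.4%. Of the 4, only 2, Timp2 and Timp3, had enough counts to be tested within microglia. Timp1 and Timp4 passed the filter on counts through non-microglia, which favours this direction. Timp3 had 497, 448, 504 and 465 CPM in the 4 non-microglia libraries, against a range of 0 to 19.4 (median 4.06) in GFP and 0.435 to 16.2 (median 5.38) in TGFB1 microglia (log2 fold change 5.91, SE 0.55, and 6.44, SE 0.58). Timp2 ran from 53.4 to 71.9 CPM (median 69.4) in GFP and 55.1 to 79.7 (median 65.5) in TGFB1 microglia, and its 4 non-microglia libraries had 99.9, 99.0, 114 and 89.03. The Timp2 fractions did not overlap either, yet the log2 fold change was only 0.59 (SE 0.13, edgeR adjusted p = 0.000329) and 0.62 (SE 0.13, edgeR adjusted p = 0.000201). Of the exons of Timp3, 21.3% overlap those of Syn3, so its level may hold reads of that gene.

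Among the proteases, 7 of 10 Adamts and 6 of 9 Mmp genes tested were higher in non-microglia of GFP retinas, and 6 of 10 and 6 of 9 in TGFB1 retinas. Over all genes tested, 34.2% and 34.4% were higher. Lower in non-microglia were 2 Mmp genes in each treatment, and Adamts10 in TGFB1 retinas. Only 3 of the 10 Adamts and 6 of the 9 Mmp genes had enough counts to be tested within microglia. The rest passed the filter on counts through non-microglia, which favours the higher calls. Adamts1 had 879, 729.7, 979 and 759 CPM in non-microglia and 160.0 to 323 in microglia, so it was higher in non-microglia (log2 fold change 1.81 and 2.10) although it was also the highest matrix gene per length in microglia. Adamts5 and Adamts18, both secreted proteases, had 231 to 246 and 67.2 to 102 CPM in non-microglia and at most 12.7 and 3.53 in any microglia library. Mmp14, the membrane-bound protease that activates Mmp2, was higher in non-microglia at 40.2, 47.8, 30.0 and 31.2 CPM (log2 fold change 2.63 and 1.601), and Mmp11, stromelysin 3, at 51.7, 37.4, 54.8 and 58.8 CPM (3.16 and 3.22). Fn1, fibronectin, was higher in non-microglia by 1.73 (SE 0.34, edgeR adjusted p = 0.000295) and 1.004 (SE 0.34, edgeR adjusted p = 0.0159) on the log2 scale. The Fn1 call in TGFB1 retinas was lost without the second TGFB1 library of non-microglia, one of the 5 calls that rested on it.

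**Figure D2:**
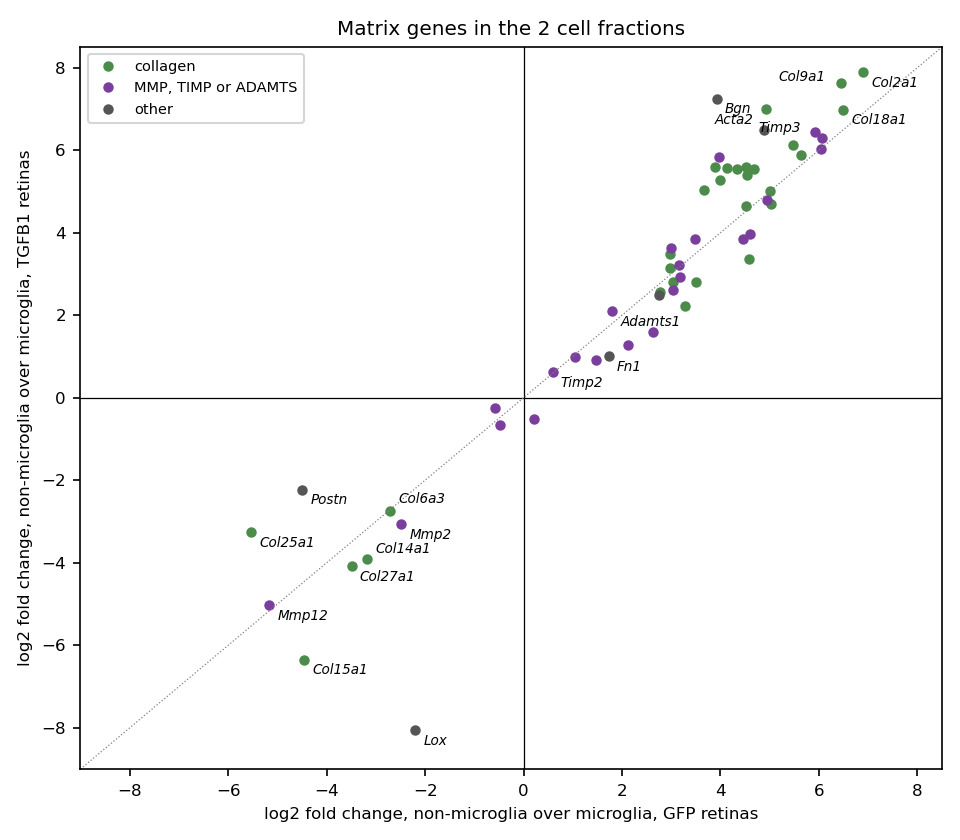
Fitted log2 fold change of non-microglia over microglia for the 58 matrix genes tested, in GFP retinas (horizontal axis) and in TGFB1 retinas (vertical axis), 1 point a gene, coloured by family; the dotted line marks equal values. Most points lie in the upper right, Col27a1, Col15a1, Col14a1, Col6a3, Mmp2, Mmp12, Postn, Lox and Col25a1 lie in the lower left, and the positions of Lox (0 counts in TGFB1 non-microglia) and Col25a1 (0 counts in GFP non-microglia) depend on the model's prior count.

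The set that was higher in microglia held members of several families. Col27a1 ran from 62.0 (median 84.3) to 151 CPM in GFP microglia and from 68.5 (median 104) to 143 in TGFB1 microglia, and had 10.6 and 6.398 CPM in GFP and 7.17 and 4.87 in TGFB1 non-microglia. Every microglia library lay above every non-microglia library, with a pooled ratio of 11.2 (counting interval 8.53 to 14.9) in GFP and 17.4 (12.6 to 24.8) in TGFB1 retinas. Col15a1, a multiplexin of basement membrane zones, ran from 10.3 to 24.7 CPM in microglia and had only 5 and 1 counts in the non-microglia of the 2 treatments, which gives pooled ratios of 23.7 (10.1 to 73.7) and 110.0 (19.6 to 4361).

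Col6a3, a chain of the beaded-filament type VI collagen, ran from 24.3 to 41.4 CPM (median 31.2) in GFP and 13.9 to 40.6 (median 33.2) in TGFB1 microglia, and had 6.76, 3.03, 5.22 and 3.57 CPM in non-microglia. The chains known to assemble with it were hardly seen in microglia: per length Col6a3 had 2.64 ± 0.68 RPKM there, Col6a1 0.238 ± 0.27 and Col6a2 0.0359 ± 0.056. Col14a1, a fibril-associated collagen, ran from 1.45 to 14.3 CPM in microglia and had 5 and 3 counts in non-microglia. Col25a1, a transmembrane collagen, was called in GFP retinas only, with 38 counts in microglia and 0 in non-microglia. This puts the level in microglia at least 2.45-fold higher against the floor of 3 counts per library. Col25a1 was tested only in the joint fit, which it entered through its counts in microglia, where it was high. Of the 18 fits that left out 1 library, 16 held a value for it. It was not called when either GFP library of non-microglia was left out. The test of whether its treatment effect differs between fractions did not pass either (edgeR adjusted p = 0.99995).

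Mmp2 ran from 12.1 to 35.0 CPM (median 31.4) in GFP and 27.4 to 40.1 (median 33.3) in TGFB1 microglia, against 5.29, 4.38, 2.94 and 5.20 in non-microglia (log2 fold change -2.49, SE 0.34, and -3.07, SE 0.35, for non-microglia over microglia). Mmp12, macrophage elastase, had 116 and 256 counts in microglia and 1 and 3 in non-microglia of GFP and TGFB1 retinas, with pooled ratios of 46.5 (8.19 to 1854) and 35.3 (11.9 to 172). The Mmp12 call was lost in GFP retinas without either GFP library of non-microglia or without the filter on low counts, and in TGFB1 retinas without the first TGFB1 library. Postn, periostin, a matricellular protein of fibrous tissue, had 74 and 82 counts in microglia and 1 and 7 in non-microglia, and its call in TGFB1 retinas was lost without the second TGFB1 library. Lox, the enzyme that crosslinks collagen, had 185 and 204 counts in microglia and 16 and 0 in non-microglia, where 15 of the 16 came from 1 GFP library; its level was at least 14.2-fold higher in TGFB1 microglia against the floor of 3 counts per library.

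The 8 genes higher in microglia in both comparisons were chosen for this difference in the same libraries, so their sum only describes its size. Summed over them, microglia libraries held 143 to 254 CPM and non-microglia libraries 15.6 to 29.1. Fibroblasts are another known source of Lox, Postn, Col6a3, Col14a1 and Mmp2. Their markers summed to 0.781 to 20.8 CPM in microglia and 74.6 to 82.9 in non-microglia. In non-microglia Lum, Dpt and Dpep1 had 0 counts in both treatments, and Mfap5 and Pi16 also had 0 in the TGFB1 libraries. Of the 7 markers, only Pdgfra and Scara5 had counts in those libraries, so the sum there rests on them. Markers of perivascular macrophages and monocytes summed to 11.1 to 26.6 CPM in GFP and 10.6 to 60.9 in TGFB1 microglia. Ly6c2 was at 0 in TGFB1 microglia. In non-microglia these markers summed to 7.64 to 18.3 CPM. The part of fibroblasts, macrophages and monocytes in the set was not tested.

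Promoters are shown for 3 genes higher in microglia and for Col9a1, because PU.1 is the myeloid transcription factor of microglia and SMAD proteins carry TGFB1 signals, and these sequences show where the letters known from their sites stand. They are RefSeq windows on GRCm38.p6, from 250 bases before to 50 after the annotated start, printed 5′ to 3′ on the strand of the gene. Capitals mark GAGGAA, a core of PU.1 sites, or its reverse complement TTCCTC, and CAGAC, the SMAD box, or its reverse complement GTCTG. The windows are chr1:90843922-90844221 (minus strand) for Col6a3, chr9:7344147-7344446 (plus) for Mmp12, chr3:54360857-54361156 (plus) for Postn and chr1:24177360-24177659 (plus) for Col9a1, and each holds the start of its gene.
Col6a3: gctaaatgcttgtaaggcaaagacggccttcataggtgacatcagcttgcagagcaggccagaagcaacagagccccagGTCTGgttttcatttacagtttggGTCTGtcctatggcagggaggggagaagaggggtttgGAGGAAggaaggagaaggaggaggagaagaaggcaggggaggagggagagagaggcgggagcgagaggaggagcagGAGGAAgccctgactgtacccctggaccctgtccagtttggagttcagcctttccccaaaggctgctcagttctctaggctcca
Mmp12: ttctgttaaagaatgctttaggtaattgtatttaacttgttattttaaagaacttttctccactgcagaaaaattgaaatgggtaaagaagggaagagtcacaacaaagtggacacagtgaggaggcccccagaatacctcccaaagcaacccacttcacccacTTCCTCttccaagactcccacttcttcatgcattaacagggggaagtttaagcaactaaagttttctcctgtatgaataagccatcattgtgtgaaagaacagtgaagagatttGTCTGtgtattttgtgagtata
Postn: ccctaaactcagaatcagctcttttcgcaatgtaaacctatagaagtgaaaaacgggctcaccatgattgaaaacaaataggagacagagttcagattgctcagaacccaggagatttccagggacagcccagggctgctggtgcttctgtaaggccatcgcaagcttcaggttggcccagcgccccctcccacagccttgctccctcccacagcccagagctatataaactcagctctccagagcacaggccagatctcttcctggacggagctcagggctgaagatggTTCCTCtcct
Col9a1: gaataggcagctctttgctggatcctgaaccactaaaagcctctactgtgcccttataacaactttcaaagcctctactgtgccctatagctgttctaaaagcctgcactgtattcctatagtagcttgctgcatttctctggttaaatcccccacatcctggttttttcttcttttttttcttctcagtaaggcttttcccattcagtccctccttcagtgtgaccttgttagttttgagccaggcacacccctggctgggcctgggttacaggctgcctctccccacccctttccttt

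Counted from the annotated start as 0 to the first printed letter of the match, the PU.1 core stood at -110 and -34 in the Col6a3 promoter, at -86 in Mmp12 and at 40 in Postn, and neither motif is in the Col9a1 window. The 2 motifs share no letters in these windows. Searched on both strands, the PU.1 core is in 27.1% of the 16514 promoters of the RefSeq table and the SMAD box in 48.4%. Of the 69 matrix genes with a promoter there, 20 hold the PU.1 core (29.0%) and 34 the SMAD box (49.3%), shares near those of all promoters. Among the genes higher in microglia in both comparisons, 5 have a promoter in the table and 4 of them, Col27a1, Col6a3, Mmp12 and Postn, hold the PU.1 core, while Col15a1 does not; among the genes higher in non-microglia it is 8 of 33. For the SMAD box the counts are 4 of 5, all but Postn, and 14 of 33. These are counts of letters in a window and were not tested.

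Some matrix genes that were far higher in non-microglia were highest, among microglia libraries, in those with the most Mueller glia markers. Timp3 was highest in microglia GFP 5, GFP 2 and TGFB1 6, at 19.4, 18.3 and 16.2 CPM. The summed Mueller glia markers were highest in the same 3 libraries, at 939, 932 and 772 CPM against 282 to 534 in the other 11. Endothelial markers were also highest in these 3, at 40.2, 147 and 74.1 CPM. Bipolar cell markers were highest in GFP 2 and TGFB1 6, and astrocyte markers in GFP 5 and TGFB1 6, so this order is not particular to Mueller glia markers. Col9a1 was highest in GFP 5 and TGFB1 6, at 16.0 and 9.88 CPM. Adamts1 showed this order only in part: it was highest in GFP 2 at 323 CPM, but had 189 in GFP 5 and 217 in TGFB1 6, against 275 in GFP 7. Timp2 had 71.9, 64.4 and 66.4 CPM in GFP 2, GFP 5 and TGFB1 6, and was highest in TGFB1 3 at 79.7. In the mean over libraries the microglia level of Col2a1, Col9a1, Col18a1, Timp3 and Adamts5 was 0.708%, 0.904%, 1.03%, 1.49% and 1.52% of the non-microglia level, and that of the summed Mueller glia markers 3.35% (1.87% to 6.22% by library). The corresponding share was 65.8% for Timp2, 49.3% for Mmp19, 40.3% for Fn1, 25.9% for Adamts1 and 22.7% for Mmp14, all above the highest library share of the Mueller glia markers. So were 18 of the 44 genes higher in non-microglia in both comparisons, among them Col4a4 at 16.1% and Tagln at 15.4%. Several rest on few counts: the microglia means were 1.71 CPM for Col4a4, 1.13 for Tagln, 0.487 for Col4a3, 0.444 for Mmp15 and 0.420 for Mmp28. A floor of 3 counts is 1.09 to 2.12 CPM in microglia libraries. These are mean shares set beside the highest share of a single library, and the part of all genes that lies above it was not counted. The summed markers of fibroblasts reached 26.3% and those of endothelial cells 10.2% in their highest microglia library. The fibroblast share lay above those of Adamts1 and Mmp14. It is set against non-microglia libraries in which 3 of the 7 fibroblast markers in GFP and 5 in TGFB1 retinas had 0 counts. The part of these cells was not tested. Of the exons of Mmp19, 28.3% overlap those of Tmem198b and Gm47093, so its level may hold reads of these genes. With the 3 libraries left out, none of the 52 calls shared by both comparisons was lost. For the 44 genes higher in non-microglia, counts of other cells in microglia would make the difference smaller. That fit could therefore hardly lose those calls, and it does not bear on the part of other cells.

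**Figure D3:**
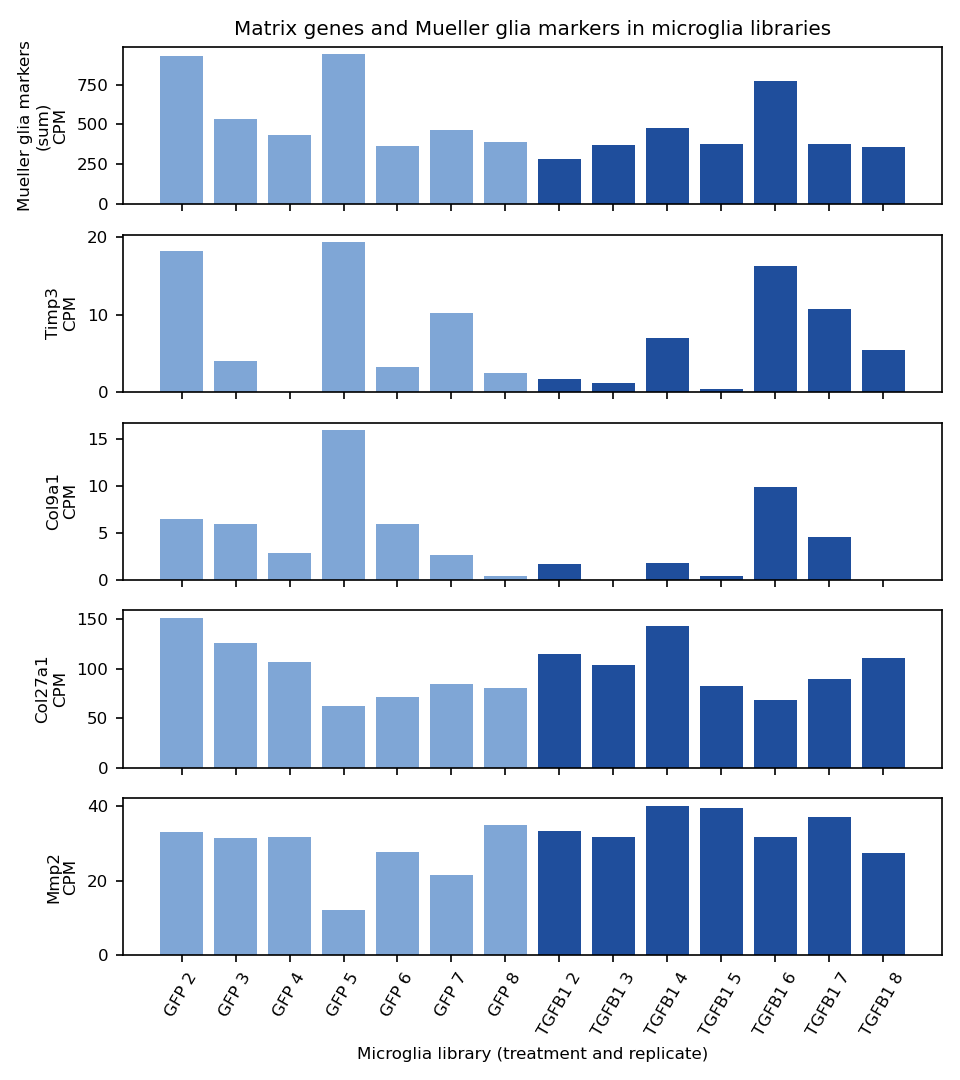
Summed level of the Mueller glia markers and levels of 4 matrix genes (CPM) in each of the 14 microglia libraries, with GFP libraries in light and TGFB1 libraries in dark blue. GFP 2, GFP 5 and TGFB1 6 are highest for the markers and for Timp3, while Col27a1 and Mmp2 are present in every library.

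In microglia, the comparison of TGFB1 with GFP retinas found no matrix gene that passed the test, in either direction. Of the 96 genes, 18 had enough counts to be tested, and 0 were called (edgeR quasi-likelihood, Benjamini-Hochberg), where 0.31% of the 10970 genes tested were called, 0.237% higher and 0.0729% lower. At an unadjusted p under 0.05 it was 1 of the 18, against 6.65% of all genes. DESeq2 called 0, but gave an adjusted p for only 3 of the 18, Fn1 not among them. The 18 log2 fold changes ran from -0.48 to 1.24, with 10 above and 8 below 0 and a median of 0.07, against 0.00 over all genes. The 4 collagen chains tested, Col27a1, Col15a1, Col6a3 and Col14a1, lay between -0.14 and 0.09.

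Fn1 (ENSMUSG00000026193, chromosome 1, 71585520 to 71653200 on GRCm38) had the smallest p. It ran from 15.9 (median 29.9) to 49.5 CPM in the 7 GFP libraries and from 36.0 (median 56.5) to 101 in the 7 TGFB1 libraries. The groups overlapped between 36.0 and 49.5 CPM, and 1 TGFB1 library, replicate 2, stood far above the others. The log2 fold change was 0.82 (SE 0.28, edgeR adjusted p = 0.498) and 0.64 without that library. It was 1.12 (edgeR adjusted p = 0.295) without the 3 libraries highest in Mueller glia markers, and it did not pass the test in these 3 fits. Markers of perivascular macrophages and monocytes were highest in TGFB1 5, 3 and 2, at 60.9, 43.8 and 39.8 CPM, against at most 26.6 in GFP microglia. In TGFB1 7, with 61.7 CPM of Fn1, they stood at 24.0 CPM. Their part in the Fn1 value was not tested.

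Mmp12 ran from 0.968 (median 5.27) to 24.1 CPM in GFP and from 3.53 (median 16.1) to 44.4 in TGFB1 microglia, and the treatments overlapped widely (log2 fold change 1.24, SE 0.66, edgeR adjusted p = 0.813). Its difference ranged from 0.82 to 1.87 when single libraries were left out. Mmp2, at a mean of 27.5 ± 8.11 CPM in GFP and 34.4 ± 4.71 in TGFB1 microglia (n = 7 each), had a log2 fold change of 0.32 (SE 0.17, edgeR adjusted p = 0.784).

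On the other side, Adamts1 stood at 230.4 ± 55.3 CPM in GFP and 203 ± 21.7 in TGFB1 microglia (log2 fold change -0.19, SE 0.15, edgeR adjusted p = 0.893). Col6a3 had 33.1 ± 6.17 and 30.2 ± 10.01 CPM (-0.14, SE 0.20, edgeR adjusted p = 0.946). Timp3 had 8.21 ± 7.88 and 6.07 ± 5.80 CPM (-0.48, SE 0.81, edgeR adjusted p = 0.957) and was no longer tested without the 3 libraries named above. Lox and Postn, with log2 fold changes of 0.25 (SE 0.21) and 0.24 (SE 0.38), did not pass the test either, and Timp2 had 66.2 ± 6.36 and 66.1 ± 7.98 CPM.

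In non-microglia, where Tgfb1 had counts in the TGFB1 libraries alone, 52 matrix genes could be tested, and again 0 were called, where 0.39% of the 13598 genes tested were called, 0.338% higher and 0.0515% lower. At an unadjusted p under 0.05 there were 3 of 52, namely Bgn, Mmp14 and Adamts17, against 7.63% of all genes. DESeq2 called 0, but gave an adjusted p for only 12 of the 52, Bgn not among them. The log2 fold changes ran from -1.21 to 0.87, with 19 above and 33 below 0 and a median of -0.06, against -0.00 over all genes. With 2 libraries a group, this comparison rests on few replicates.

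No collagen chain passed the test: the 26 tested lay between -0.52 and 0.38, 8 above and 18 below 0. The chains best known from fibrosis were low and showed no common direction. Col1a2 had 21.1 and 22.9 CPM in GFP and 17.0 and 26.0 in TGFB1 non-microglia (log2 fold change -0.03, SE 0.26). Col3a1 had 21.1 and 2.69 CPM in GFP and 9.13 and 15.9 in TGFB1 libraries (0.05, SE 1.08), so 1 GFP library was the highest and the other the lowest of the 4. Without the first GFP library the log2 fold changes were 2.1995 for Col3a1 and 1.07 for Col4a2. That fit sets the TGFB1 libraries against 1 GFP library, the lowest of the 4 for both genes. A group of 1 library has no spread of its own, so these values do not show a change with treatment.

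Col4a2 had 69.0 and 29.6 CPM in GFP and 48.6 and 75.7 in TGFB1 non-microglia, and Col4a1 44.6 and 22.9, then 30.0 and 47.4. Markers of pericytes and smooth muscle summed to 676 and 256 CPM in GFP and 508 and 707 in TGFB1 libraries, in the same order as both Col4 chains; their part in these values was not tested. The contractile genes of smooth muscle and myofibroblasts did not pass the test: Acta2 had 80.5 and 37.4, then 73.1 and 21.1 CPM (log2 fold change -0.33, SE 0.93), and Tagln 7.93 and 5.39, then 12.4 and 3.57 CPM (0.26, SE 0.50). Of the exons of Tagln, 67.9% overlap those of Pcsk7 and Gm48529, so its counts may hold reads of these genes.

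Bgn (ENSMUSG00000031375, chromosome X, 73483602 to 73495933 on GRCm38), biglycan, a small proteoglycan that binds collagen, had the smallest p of the 52. It had 20.9 and 21.6 CPM in GFP and 36.5 and 40.6 in TGFB1 non-microglia. The 2 groups did not overlap and the libraries of each lay close together. Choosing the gene with the smallest p favours such groups, and the share of all genes without overlap was not counted. The log2 fold change of 0.87 (SE 0.21) missed the threshold after adjustment over all genes (edgeR adjusted p = 0.0800). Between 0.79 and 0.94 when single libraries were left out, it was called without the filter on low counts (edgeR adjusted p = 0.0246). In the fit of all 18 libraries the value was 0.86 with an SE of 0.69 and was not called. In the 4 libraries cone markers summed to 1543 and 1823 CPM in GFP and 751 and 1100 in TGFB1 retinas, bipolar cell markers to 1160 and 1092, then 1867 and 1658, and erythroid markers to 778 and 698, then 307 and 278; their part in the value of Bgn was not tested.

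Mmp11 had 51.7 and 37.4 CPM in GFP and 54.8 and 58.8 in TGFB1 non-microglia and did not pass (0.35 on the log2 scale, SE 0.18, edgeR adjusted p = 0.674). Nor did Col7a1, the chain of anchoring fibrils, at 14.7 and 12.5, then 17.6 and 17.5 CPM (0.38, SE 0.28, edgeR adjusted p = 0.857). On the negative side, Mmp14 had 40.2 and 47.8 CPM in GFP and 30.0 and 31.2 in TGFB1 libraries (-0.52, SE 0.20, edgeR adjusted p = 0.470). Adamts17 had 27.6 and 22.2, then 13.7 and 18.8 CPM (-0.61, SE 0.26, edgeR adjusted p = 0.568), and Adamts16 14.98 and 19.9, then 8.48 and 13.6 (-0.64, SE 0.32, edgeR adjusted p = 0.663). The GFP and TGFB1 libraries did not overlap for these 5 genes, but none passed the adjusted test. Like Bgn, they were named for a p among the smallest in their direction, which favours groups that do not overlap. The share of all genes tested whose groups do not overlap was not counted. The lack of overlap can therefore not be set against it. The abundant Col9a1, Timp3, Adamts5 and Col18a1, which have the most counts, had log2 fold changes of -0.14 (SE 0.09), 0.04 (SE 0.09), 0.03 (SE 0.09) and -0.06 (SE 0.10).

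**Figure D4:**
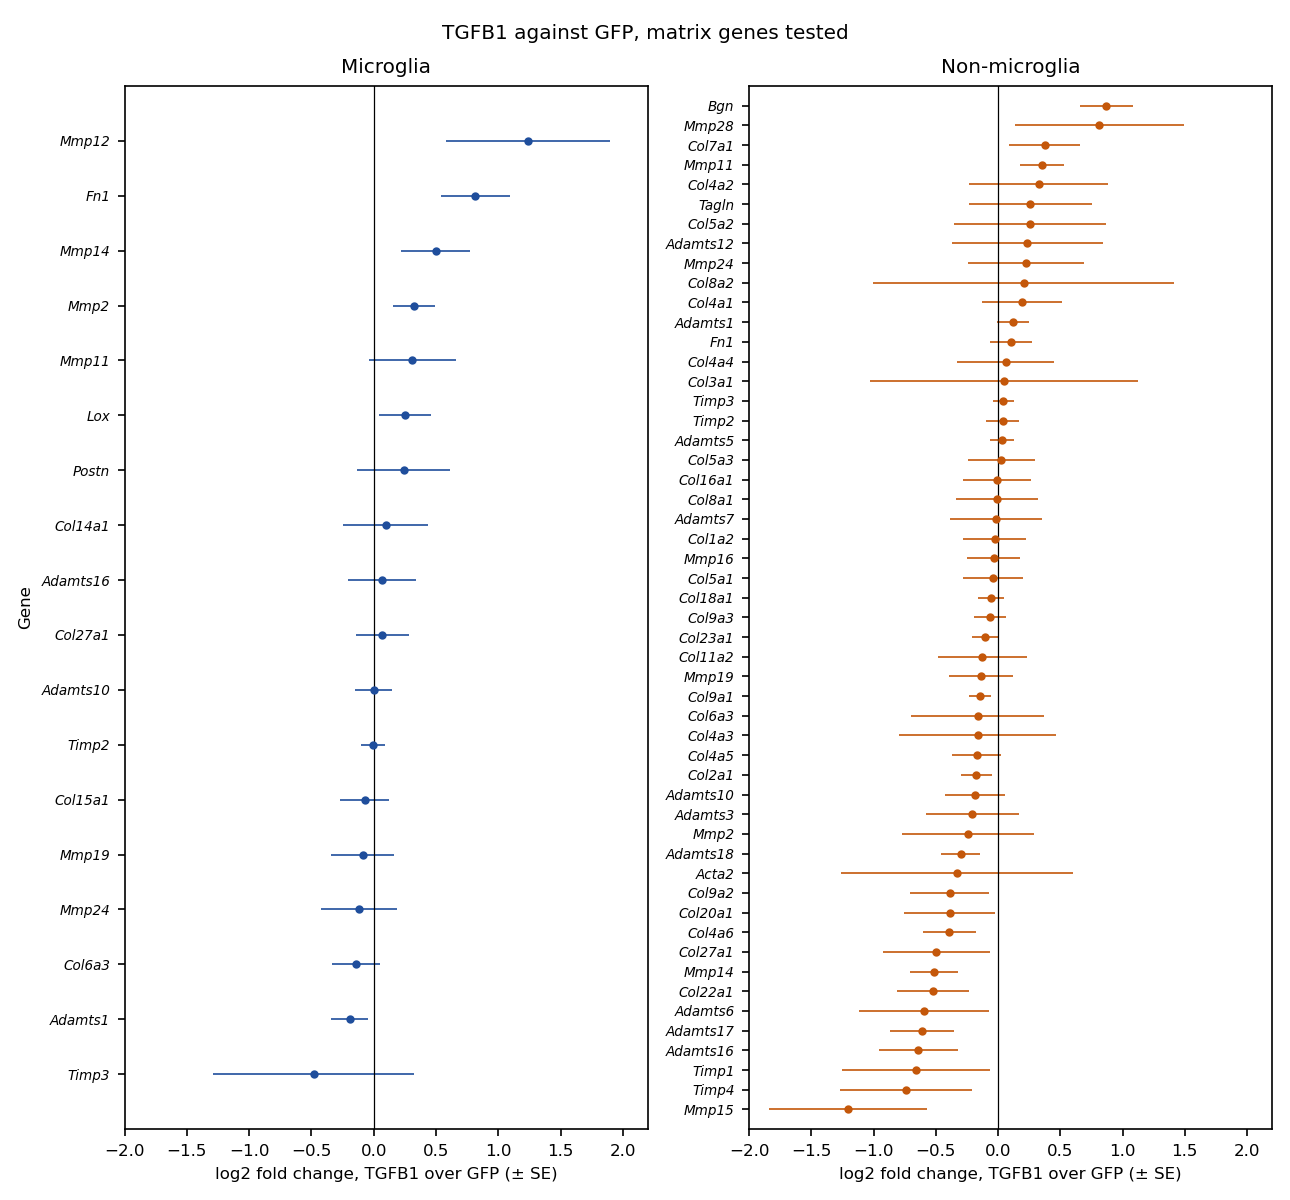
Log2 fold change of TGFB1 over GFP (points, with bars of 1 SE) for the 18 matrix genes tested in microglia and the 52 tested in non-microglia. In microglia the values run from -0.48 for Timp3 to 1.24 for Mmp12, and in non-microglia from -1.21 for Mmp15 to 0.87 for Bgn, and 0 of them passed the adjusted test.

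**Figure D5:**
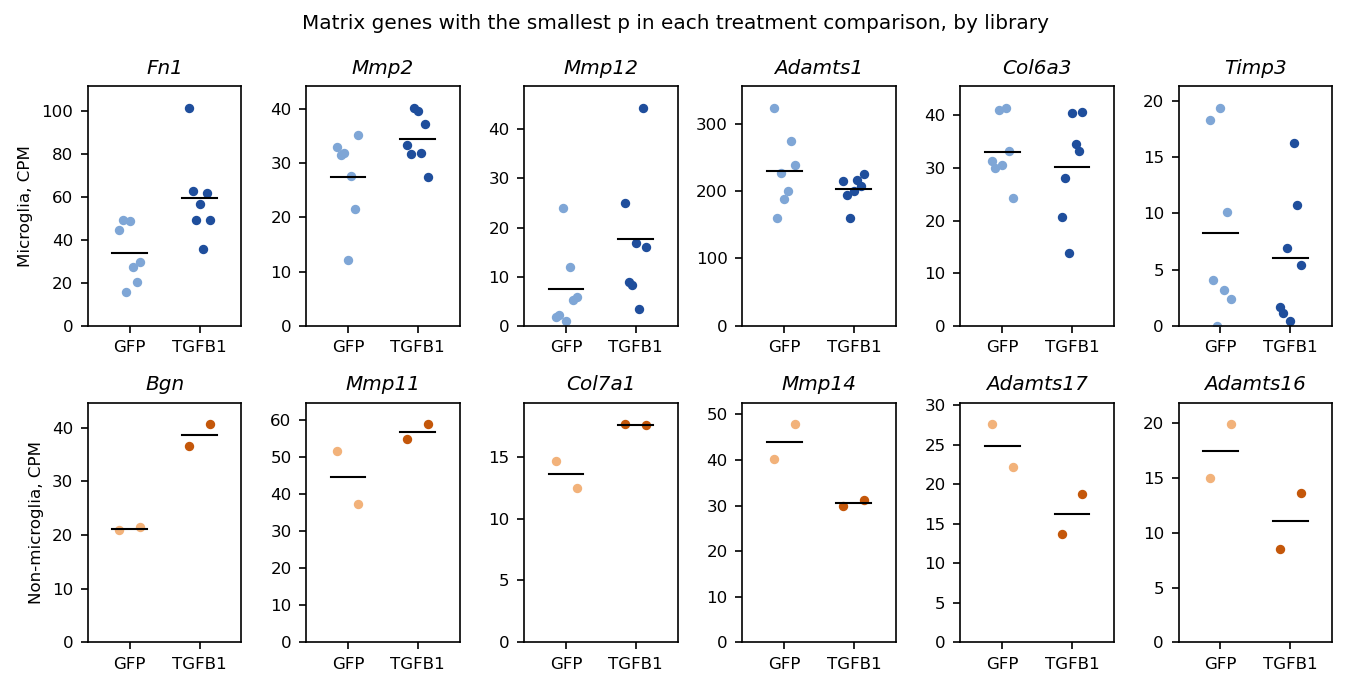
Level (CPM) in each library of the 3 matrix genes with the smallest p in each direction, in microglia (upper row) and non-microglia (lower row); points are libraries and bars are group means. Fn1 reaches 101 CPM in 1 TGFB1 library, and Bgn stands at 36.5 and 40.6 CPM in TGFB1 non-microglia against 20.9 and 21.6 in GFP.

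Whether the treatment effect differs between the fractions was tested in 1 fit of all libraries, and 0 of 58 matrix genes were called, where 0.0131% of the 15321 genes tested were (edgeR and Benjamini-Hochberg; DESeq2 called 0 of the 14 it gave an adjusted p). At an unadjusted p under 0.05 it was 4 of 58, namely Lox, Bgn, Col5a1 and Mmp14, against 4.64% of all genes. Lox had the smallest p (edgeR adjusted p = 0.669): its 15 and 1 counts in GFP and 0 and 0 in TGFB1 non-microglia stood beside medians of 9.42 and 13.7 CPM in microglia. The Mmp14 log2 fold changes had opposite signs, at 0.50 (SE 0.28) in microglia and -0.52 in non-microglia, with a difference of -1.03 (SE 0.45, edgeR adjusted p = 0.99995).

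Other genes that make, hold or cut the matrix were examined in 5 lists, which were chosen with earlier results of these data known. Shares in these lists are therefore no independent comparison with those of all genes. Of 7 tested glycoprotein and proteoglycan genes in microglia, 1 fell and 0 rose, where 0.0729% of all genes tested were lower and 0.237% higher. The gene that fell, Tgfbi, a secreted matrix protein, had 88.01 ± 5.49 CPM in GFP and 63.1 ± 3.19 in TGFB1 microglia. With 7 libraries in each group its log2 fold change was -0.49 (SE 0.08, edgeR adjusted p = 0.00599). Of 9 tested genes of collagen synthesis and crosslinking, 10 receptors for collagen and fibronectin, 4 genes of laminins and basement membrane and 14 of plasminogen and other proteolysis, 0 were called in microglia. At an unadjusted p under 0.05 it was 5 of 14 proteolysis genes, 3 of 7 glycoproteins and proteoglycans, 2 of 9 synthesis genes, 1 of 10 receptors and 0 of 4 laminin genes, against 6.65% of all genes. In non-microglia 0 were called of 21 synthesis and crosslinking genes, 13 receptors, 12 laminin and basement membrane genes, 21 glycoproteins and proteoglycans and 15 proteolysis genes. There it was 7 of 21 glycoproteins and proteoglycans at an unadjusted p under 0.05, with Ccn1 nearest to a call (-0.43 on the log2 scale, SE 0.10, edgeR adjusted p = 0.0658), and 2, 1, 0 and 1 of the synthesis, receptor, laminin and proteolysis genes, against 7.63% of all genes. Median log2 fold changes of the lists ran from -0.21 to 0.11 in microglia and from -0.14 to 0.03 in non-microglia, against 0.00 and -0.00 over all genes.

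The other 38 matrix genes were tested in no fit. Each had 1 to 75 counts over all 18 libraries (median 28), and the highest mean of any of them in any group was 4.40 CPM, for Col17a1 in TGFB1 non-microglia. They include Col1a1, Dcn (decorin), Mmp9 (gelatinase B), Col6a1 and Col6a2, and in all 13 Mmp and 9 Adamts genes. Dcn had 19 and 21 counts in GFP and TGFB1 microglia and 3 and 9 in non-microglia, and Mmp9 29 and 17, then 5 and 2. A floor of 3 counts corresponds to 0.881 to 2.12 CPM by library, so differences between treatments were not detectable for most of these genes at this depth.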

How the data were processed

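RNA of sorted retinal cells was measured in 18 libraries, grouped by their titles. The authors deposited raw read counts per Ensembl gene, with no normalization; STAR, featureCounts, DESeq2 and GRCm38.p6 are named per the submitters' processing notes, while their versions, the annotation release and the strand setting are not given in sources used here. Identifiers were matched to GENCODE M21 (54495 of 54532 genes), exon overlaps were found with bedtools 2.31.1, and promoters are those of RefSeq on GRCm38.p6. The matrix genes and all gene lists were chosen with earlier results of these data known.

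Tests were run with edgeR 4.0.16 (R 4.3.3) on the whole count table with TMM factors, filterByExpr and the robust quasi-likelihood F test, and Benjamini-Hochberg adjustment over all genes tested; genes under 0.05 were called. SEs were obtained as the absolute log2 fold change over the root of F. Treatments were compared within each fraction; the difference of these effects and the comparisons between fractions came from 1 fit of all 18 libraries. CPM and RPKM use the TMM-scaled library sizes of that fit. Pooled ratios carry exact 95% counting intervals; these intervals, and floors of 3 counts for each library, hold counting error alone, since reads have no molecular identifiers. The fits were tested on simulated counts.

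Named genes are, per treatment comparison, the 3 with the smallest p in each direction, the 12 highest per length in each fraction, the 6 called with the largest change in each direction between fractions, and called genes of the lists; others were named with their values known. The settings varied were RLE size factors (as in DESeq2), no filter on low counts, DESeq2 1.42.0, a replicate block, the fit of all 18 libraries, and leaving out each library; leaving out together the 3 microglia libraries highest in Mueller glia markers was added after the counts were seen. All columns were used.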

Additional observations from a re-analysis of the deposited data

Results flagged for a closer look

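Among the named matrix genes, 60 combinations of gene and microglia group of 7 were examined for a library far from the other 6 (Dixon's ratio above 0.568), and 11 were found. Chance alone marks about 1 in 20 where values are normally distributed. Several of these genes have few counts in microglia, with skewed values, for which the chance rate can be higher and was not estimated. The 11 can therefore not be set against it. Microglia TGFB1 6 was highest for Adamts5 at 12.7 CPM (the others at most 3.42), for Col23a1 at 7.06 (at most 2.92) and for Bgn at 1.41, which is 2 counts. Microglia GFP 5 was highest for Col9a1 at 16.0 CPM (at most 6.48) and for Bgn at 7.26 (at most 1.77), and GFP 2 for Col2a1 at 7.66 (at most 1.94). These 3 libraries are also the highest in Mueller glia markers, at 772, 939 and 932 CPM, and in endothelial markers. The part of other cells in these values was not tested.

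Fn1 was highest in microglia TGFB1 2 at 101 CPM, against 36.0 to 62.9 in the other TGFB1 libraries. Acta2 was highest in microglia GFP 8 at 9.16 CPM (at most 1.77 in the others), and Adamts16 lowest in the same library at 3.98, against 13.7 to 20.7. Adamts17 was highest in GFP 6 at 2.30 CPM, which is 5 counts. Timp2 was lowest in GFP 7 at 53.4 CPM, against 64.1 to 71.9.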

How the results depend on the processing

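The replicate numbers in the titles were examined as pairs: same-numbered microglia libraries correlated by -0.122 to 0.216 after group means were removed, and only replicate 2 matched its own number best, while the non-microglia pairs gave -0.07, so the numbers are not taken to pair the libraries. With the replicate block, 1 matrix gene was higher in microglia (Fn1, log2 fold change 0.83, edgeR adjusted p = 0.0478) and 1 in non-microglia (Bgn, 0.87, edgeR adjusted p = 0.0216), and 60 genes of all were called in microglia and 109 in non-microglia, against 34 and 53. Without the filter on low counts, 1 matrix gene was higher in non-microglia (Bgn) and 1 lower in the difference of effects (Lox, edgeR adjusted p = 0.0342); all genes called were 64, 102 and 12, against 34, 53 and 2. DESeq2 called 56, 34 and 4 genes of all, with no adjusted p for 15, 40 and 44 of the matrix genes, and the fit of all 18 libraries 15 in microglia and 4 in non-microglia. Leaving out single libraries, 16 to 34, 28 to 110 and 1 to 2 genes of all were called, and 0, 0 to 2 and 0 matrix genes were higher; in non-microglia this leaves 1 library in a group, which is assumed to vary like the others.

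Between fractions, leaving out single libraries gave 42 to 47 matrix genes higher in GFP and 41 to 46 in TGFB1 retinas, and 7 to 9 and 7 to 10 lower. Of the 52 genes called alike in both comparisons, 0 changed direction under any alternative. Up to 5 lost their call without a non-microglia library: Col3a1, Col5a2, Mmp19, Mmp28 and Mmp12 without GFP 1, Col4a3, Col8a2 and Mmp12 without GFP 2, Col4a3, Col8a2, Mmp28, Tagln and Mmp12 without TGFB1 1, and Col5a2, Fn1, Mmp15, Mmp19 and Postn without TGFB1 2. Without the filter Mmp12 lost its call in GFP retinas, and with DESeq2 Col8a2 in GFP and Col4a3 and Col8a2 in TGFB1 retinas. With 2 non-microglia libraries a group and few counts for most chains, small treatment differences are not detectable.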
